A study of Mus musculus with 1931 samples.

Results

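The nuclear genes of oxidative phosphorylation were taken as every gene of the expression table whose symbol begins with Ndufa, Ndufb, Ndufc, Ndufs or Ndufv, with Cox4 to Cox8, with Uqcr or with Atp5, together with Sdha, Sdhb, Sdhc and Sdhd. The rule used symbols and no measured value. It found 98 of 20999 genes. Of these, 36 were counted by symbol with complex I, 4 with complex II, 8 with complex III, 20 with complex IV and 16 with the ATP synthase. This also placed Cox7a2l, which serves in joining complexes III and IV, with complex IV and coupling factor B (Atp5s) with the ATP synthase. The remaining matches were 8 complex I assembly factors (Ndufaf1 to Ndufaf8) and 6 pseudogenes. Ndufa4 and Ndufa4l2 were counted with complex IV, in which the NDUFA4 protein is now placed. Cyc1, which encodes the cytochrome c1 subunit of complex III, does not match the rule and is not in the complex III sums.

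The cells came from Rosette-to-Lumen stage embryoids (RtL-embryoids), which are 3D aggregates of 3 mouse embryonic stem cell (ESC) lines, and from 2D cultures of single lineages. Kermit ESCs carry GFP under the Pou5f1 promoter and form the epiblast (Epi)-like compartment, 5-Factor ESCs carry doxycycline (DOX)-inducible Cdx2, Tfap2c, Eomes, Gata3 and Ets2 and form the extraembryonic ectoderm (ExE)-like compartment, and iGATA6 ESCs carry inducible Gata6 and form the visceral endoderm (VE)-like compartment. DOX at 2 µg/ml was added to the medium of the whole aggregates for 3 days, so that Kermit-derived cells were exposed too. It was withdrawn 1 day before harvest. The 2D cultures were Kermit ESCs in 2i/LIF, induced trophoblast stem cells (iTSC) from 5-Factor ESCs and induced extraembryonic endoderm (iXEN) cells from iGATA6 ESCs. The iGATA6 cells carried mCherry in 3D and in 2D. The aggregates, the iTSC (with FGF4 and heparin) and the iXEN cells were each in a different medium. The iTSC and iXEN cultures received the same dose for 3 days and were also harvested 1 day after its withdrawal. For the 2D ESCs the paper mentions no DOX, so that exposure to it may also differ between Epi wells and ESCs. The 3D cells were sorted into plates 3, 4 and 5, and their labels give the well but not the gate. Lineage was therefore assigned by well column, with columns 1 to 8 taken as Epi wells, 9 to 16 as VE wells and 17 to 24 as ExE wells, and checked with markers. The 2D plates were 7 (ESCs), 8 (iTSC) and 9 (iXEN). Each condition was 1 sample (1 pool of aggregates or 1 culture), so that no test between conditions was possible, and the 3 plates were technical splits of 1 pool. Lineage, ESC line and plate position cannot be told apart, and neither can culture, medium and plate between 3D and 2D.

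A well entered the comparisons when 2500 or more genes were above 0 in it, which 1406 of 1931 wells reached. Of these cells, 22.3% were from Epi wells, 22.4% from VE wells, 25.1% from ExE wells, 10.1% were ESCs, 10.03% iXEN cells and 10.03% iTSC. The median number of genes above 0 was 4823, 5348 and 5396 in Epi, VE and ExE wells and 9093.5, 8699 and 8537 in ESCs, iXEN cells and iTSC. Fewer genes were thus found in the 3D cells, which may have been shallower than the 2D cells. The labels were checked with 3 marker lists (Pou5f1, Nanog, Gdf3 and Tdgf1 for Epi, Amn, Gata4, Sox17, Dkk1 and Cubn for VE, Cdx2, Elf5, Eomes and Tfap2c for ExE). The list of their own lineage led in 99.7% of cells of Epi wells, 97.5% of VE wells, every ESC and every iXEN cell. It led in 69.97% of cells of ExE wells, where the Epi list led in 13.3% and the VE list in 16.7%, and in 72.3% of iTSC, where the Epi list led in 26.95%. ExE-like cells were sorted as positive for CD40 and negative for GFP and mCherry, a gate that leaves out GFP-positive and mCherry-positive cells, and iTSC were a single culture. A lead of another list can also come with low levels of the ExE markers, and which of these holds was not tested. Summed markers of fibroblasts stayed at 0.0482 TP10k or less in every group, and those of trophoblast giant cells were at 0.841 in ExE wells and 1.90 in iTSC, nearly all of it Hand1, and at 0.016 or less elsewhere. TP10k is the deposited length-corrected transcript abundance scaled to a sum of 10000 per cell, and can be compared between genes.

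Oxidative phosphorylation passes electrons from NADH (complex I, NADH dehydrogenase) and succinate (complex II, succinate dehydrogenase) through complex III (the cytochrome bc1 complex) to complex IV (cytochrome c oxidase), and the proton gradient made on the way drives the ATP synthase. Complexes I, III and IV and the ATP synthase combine subunits encoded in the nucleus with a few encoded in mitochondrial DNA, and complex II is encoded in the nucleus alone. Several complex IV subunits exist as tissue isoforms, such as Cox6a2, Cox7a1 and Cox8b of heart and skeletal muscle, Cox4i2 of lung, and Cox6b2, Cox7b2 and Cox8c of testis. The mitochondrially encoded subunits are not among the genes of the table and were not analysed here.

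Promoters of many of these genes are known to bind the factors NRF1, GABPA (an ETS factor) and YY1. RefSeq promoter sequences (GRCm38.p6, 250 bases before to 50 after the annotated transcript start) were found by symbol for 74 of the 98 members. Both strands were searched for CGCATGCG (NRF1 core, the same on both strands), CCGGAAGT (ETS core) and AAGATGGC (YY1 core) (none of the 3 is contained in another). The NRF1 core was present in 11 of the 74 members (14.9%) and in 2.77% of 17492 protein-coding genes. The YY1 core was present in 10 members (13.5%) and in 3.57% of protein-coding genes, and the ETS core in 5 members (6.76%) and in 5.69% of protein-coding genes. At least 1 of the 3 cores was found in 24 of 74 members (32.4%) and in 11.3% of protein-coding genes. A match describes letters and is not a binding site.

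The NRF1 and ETS cores lay mostly before the start, at 9 of 11 and 4 of 6 matches. The 5 stretches below, taken from just before the start, are shown because each holds a complete core and belongs to a member that was counted as different in a comparison described further on (the core is in capitals, and the stretch runs 5′ to 3′ on the strand of the gene).
Atp5g2 (chr15:102671048-102671207, minus strand, NRF1 core): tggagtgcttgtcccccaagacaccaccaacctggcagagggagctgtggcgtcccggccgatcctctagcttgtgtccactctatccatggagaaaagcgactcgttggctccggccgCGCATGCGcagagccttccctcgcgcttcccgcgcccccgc
Atp5j (chr16:84834977-84835136, minus strand, NRF1 core): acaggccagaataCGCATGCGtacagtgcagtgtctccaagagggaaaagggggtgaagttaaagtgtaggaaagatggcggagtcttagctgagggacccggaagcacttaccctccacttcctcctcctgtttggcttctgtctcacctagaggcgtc
Atp5k (chr5:108434400-108434559, minus strand, NRF1 core): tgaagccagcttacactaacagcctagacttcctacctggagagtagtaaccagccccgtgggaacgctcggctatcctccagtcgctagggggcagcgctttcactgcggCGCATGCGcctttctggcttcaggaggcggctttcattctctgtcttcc
Ndufaf4 (chr4:24897923-24898082, plus strand, NRF1 core): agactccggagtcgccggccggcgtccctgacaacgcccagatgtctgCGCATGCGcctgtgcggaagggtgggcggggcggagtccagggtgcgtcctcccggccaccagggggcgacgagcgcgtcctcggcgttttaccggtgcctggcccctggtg
Uqcrh (chr4:116075071-116075230, minus strand, ETS core as its reverse complement): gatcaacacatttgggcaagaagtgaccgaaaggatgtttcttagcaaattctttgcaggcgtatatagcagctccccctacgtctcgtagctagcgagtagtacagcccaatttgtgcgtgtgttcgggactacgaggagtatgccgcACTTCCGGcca
The Atp5j stretch also holds the letters of the YY1 core. Among these 5 genes, Atp5g2 was lower in 3D than in 2D in 2 comparisons, while Atp5j, Atp5k and Ndufaf4 were higher in 1 each, so that the same core stood before genes that differed in opposite directions.

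The YY1 core had another position. In the members it lay after the start at 9 of 10 matches, 10 to 38 bases into the transcript and always on the strand of the gene, and at 8 of the 10 its ATG was an annotated start codon (Gencode vM21). Among all protein-coding genes the core lay after the start at 47.6% of its matches, and its ATG was an annotated start codon at 26.1%. The 4 sites below are shown with the core in capitals.
Ndufa3 (chr7:3617389-3617408, plus strand): aagaacAAGATGGCcgggag
Atp5j2 (chr5:145191505-145191524, minus strand): gacttcAAGATGGCgtcact
Ndufa9 (chr6:126849102-126849121, minus strand): tgggagAAGATGGCggccgc
Ndufaf8 (chr11:120098938-120098957, plus strand): gggcccAAGATGGCggcgcc
The ATG is the start codon in Ndufa3, Atp5j2 and Ndufa9, and Ndufaf8 is the exception after the start.

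The 98 genes made up 4.52% of the summed transcript level of Epi wells (4.28% to 4.82% over the 3 plates), 5.03% of VE wells (4.61% to 5.38%) and 5.36% of ExE wells (5.17% to 5.45%). They made up 4.98% in ESCs, 4.92% in iXEN cells and 5.23% in iTSC. The summed transcript level is that of the deposited values, from which mitochondrial, ribosomal and pseudogenes had been filtered according to the paper. It is therefore not the whole transcriptome of a cell. On each of plates 3, 4 and 5 the share rose from Epi to VE to ExE wells, although the plate ranges of VE wells and ExE wells overlapped. Across single cells the share ran from 0.666% to 7.76% in Epi wells, with quartiles at 4.09% and 4.94%, and from 0.860% to 9.35% in ExE wells, with quartiles at 4.75% and 5.90%. The 2D cells were less spread at the low end in ESCs and iXEN cells, whose lowest cells had 3.73% and 3.28%.

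The members had a similar, though not identical, order of levels in all groups. Over the 92 members that are not pseudogenes, Spearman's rho of the mean level between any pair of groups lay between 0.935 and 0.977, as a description across genes that share their libraries. Of the 85 members found above 0 in at least 25% of the cells of every group, 67 (78.8%) had a highest group mean under 2 times the lowest. Of all 6408 genes found as widely, 45.6% did, and the median of this ratio was 1.64 in members and 2.09 in all genes, which were not matched to the members in level. Another 11 members were under 25% of cells in every group. These were the 6 pseudogenes, at 0.0805 TP10k or less in sum, and the isoforms Cox4i2, Cox6a2, Cox7b2, Cox8b and Cox8c.

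Within a complex the levels spanned a wide range (the plot of all subunit genes by group). By the mean over the 6 groups, Atp5b, the catalytic beta subunit of the ATP synthase, was the highest member, at 26.8, 25.1 and 24.2 TP10k in Epi, VE and ExE wells and 36.1, 26.5 and 33.2 in ESCs, iXEN cells and iTSC. Cox4i1, the ubiquitous form of subunit 4 of complex IV, came next by this mean, at 21.4, 26.6 and 28.8 TP10k in the 3D wells and 16.3, 28.6 and 23.7 in the 2D cultures. Cox4i1 was above Atp5b in VE wells, ExE wells and iXEN cells, and below it in the other 3 groups. By the same mean, complex I was led by the accessory subunits Ndufa7, with 7.47 (iXEN cells) to 13.7 TP10k (Epi wells), and Ndufb8, with 8.61 (iXEN cells) to 12.3 TP10k (ExE wells). Its lowest member by this mean was the accessory subunit Ndufb4, with 0.489 (iXEN cells) to 1.26 TP10k (Epi wells), although Ndufa11 was lower than Ndufb4 in all 3D groups. In complex III, Uqcr11 had 11.4 to 14.6 TP10k and the core subunit Uqcrc1 had 9.72 to 12.3, while Uqcrfs1, the Rieske iron-sulfur protein, was lowest by the mean over the groups, with 2.10 to 3.35, and Uqcrc2 was lower than it in VE wells, ESCs and iXEN cells. Complex II was low and even: the membrane anchor Sdhd had 3.12 to 5.91 TP10k, the iron-sulfur subunit Sdhb 3.70 to 5.45 and the flavoprotein Sdha 2.497 to 3.26. The lowest gene of the ATP synthase group by this mean was Atp5s, known as coupling factor B, with 0.354 to 0.795 TP10k. The assembly factors had low levels too, from 0.202 TP10k (Ndufaf5) to 1.43 TP10k (Ndufaf6) in the mean of the 6 groups.

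**Figure D1:**
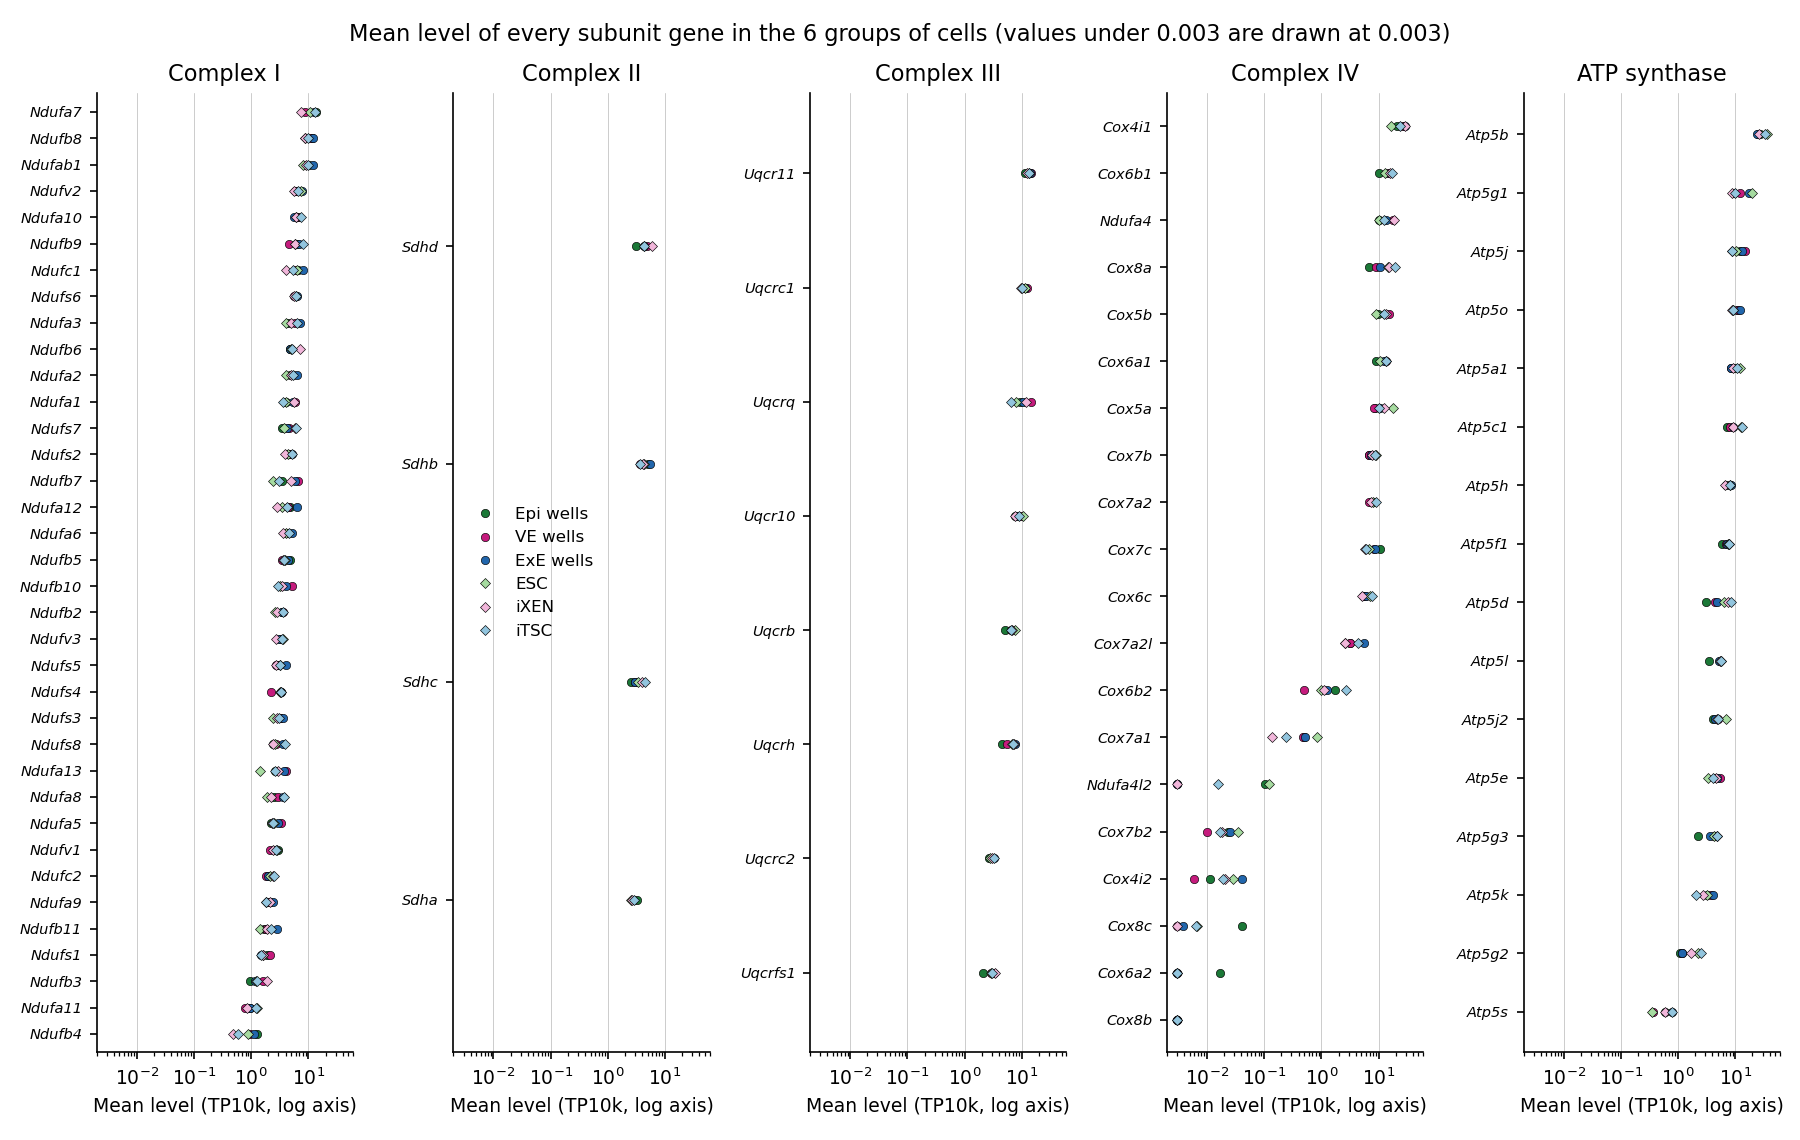
Mean level in TP10k (log axis) of every subunit gene in the 6 groups of cells, by complex, with circles for 3D wells and diamonds for 2D cultures and values under 0.003 drawn at 0.003. Most genes keep their 6 points close together between 1 and 36.1 TP10k, while the tissue isoforms of complex IV fall to the left.

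By complex, the differences between groups were of different kinds (the bar plot of summed levels). The subunit genes of complex I made up 1.54% of the transcript level in Epi wells (1.48% to 1.65% over plates), 1.53% in VE wells (1.49% to 1.62%) and 1.77% in ExE wells (1.72% to 1.81%), and 1.39%, 1.42% and 1.60% in ESCs, iXEN cells and iTSC. In both experiments the trophoblast-like group was highest, and each 3D group was above its 2D counterpart. With TPM as deposited the complex I sum of iTSC was lower (last section), so that the order of the 2D cultures may depend on the scaling per cell. Complex IV made up 1.12% in Epi wells (1.01% to 1.21%), 1.37% in VE wells (1.11% to 1.48%) and 1.42% in ExE wells (1.22% to 1.56%), and 1.28%, 1.481% and 1.477% in ESCs, iXEN cells and iTSC. Here Epi wells and ESCs were lowest in their experiment, and on each plate the order was Epi, VE, ExE wells from low to high. Plate 5 was lowest in every lineage.

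The ATP synthase set ESCs and Epi wells apart. Its genes made up 1.48% of the transcript level in ESCs, the highest of all groups, and 1.11% in Epi wells (1.07% to 1.158%), the lowest. VE wells had 1.24% (1.17% to 1.32%), ExE wells 1.29% (1.25% to 1.31%), iXEN cells 1.18% and iTSC 1.34%. Complex III was lowest in Epi wells, at 0.545% (0.508% to 0.598%), and highest in VE wells, at 0.690% (0.647% to 0.763%), beside 0.657% in ExE wells (0.643% to 0.673%) and 0.587% to 0.631% in the 2D cultures. Complex II lay between 0.139% (Epi wells) and 0.165% (iXEN cells). Of the summed members, the ATP synthase took 29.8% in ESCs and 23.96% to 25.7% in all other groups.

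**Figure D2:**
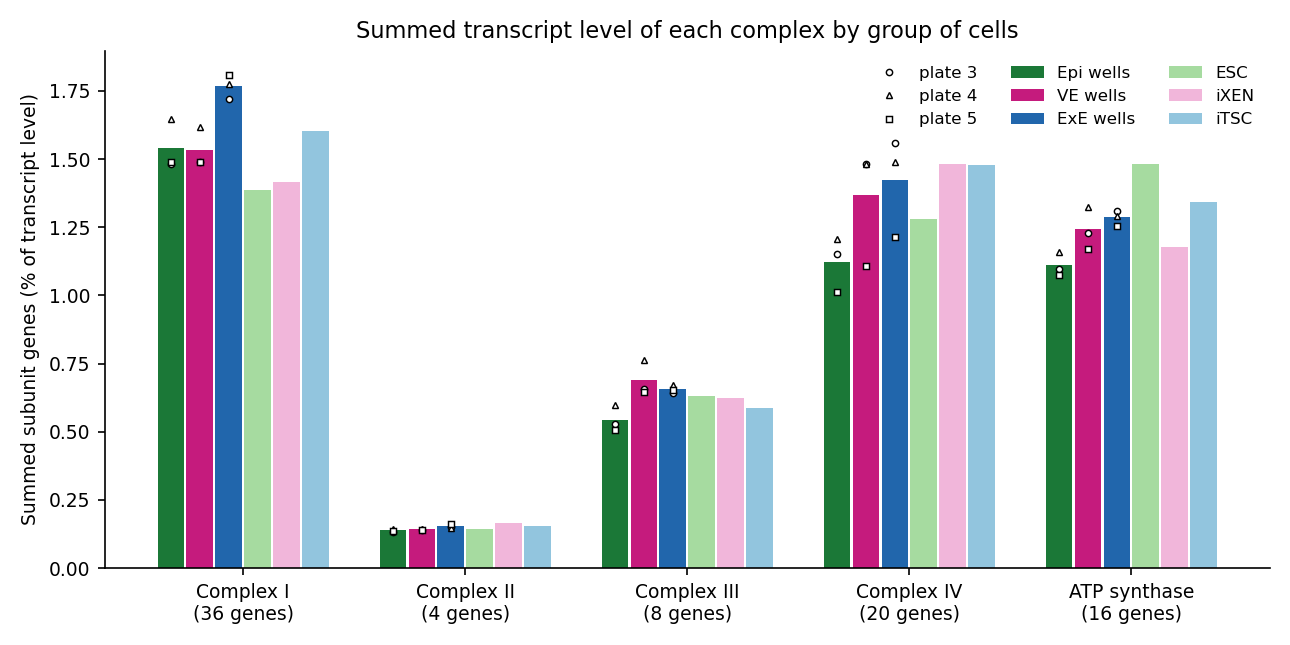
Summed mean level, as percent of the summed transcript level, of the subunit genes of each complex in the 6 groups of cells, with bars for all cells of a group and circles, triangles and squares for plates 3, 4 and 5 of the 3D wells. The ATP synthase is highest in ESCs (1.48%) and lowest in Epi wells (1.11%), and complex I is highest in ExE wells (1.77%).

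Within a cell the complexes varied together. Spearman's rho over the cells of a group between summed complex I and summed ATP synthase lay between 0.42 (Epi wells) and 0.70 (iTSC), and between complexes I and IV it lay between 0.44 (VE wells) and 0.78 (iTSC). The cells of a group share their library preparation, and both sums share the scaling of the cell. The summed level of the members had a rho of -0.25 (ESCs) to 0.05 (iTSC) with the number of genes above 0.

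The comparisons between lineages and with the 2D cultures asked which members differed. A member was eligible when 25% or more of the cells in 1 of the groups had it above 0. It was counted when its mean level, plus 0.1 TP10k, differed by at least 1.5-fold in the same direction in all cells and on each of plates 3, 4 and 5. All genes were counted in the same way as a background.

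Between VE wells and Epi wells 4 of 86 members were higher (4.65%) and 2 were lower (2.33%), where 14.9% of 8500 genes were higher and 12.3% were lower. Both shares of the members were below those of all genes, at a median log2 ratio of 0.07 (0.04 to 0.12 on single plates) beside -0.02 for all genes. Ndufb7, an accessory subunit of complex I, had 5.99, 7.44 and 6.82 TP10k on plates 3, 4 and 5 of VE wells and 3.40, 3.52 and 3.47 in Epi wells. It was 1.92-fold higher in VE wells (log2 ratio 0.94). Atp5g3, 1 of 3 genes for the same c subunit of the ATP synthase, had 3.93, 4.66 and 4.19 TP10k in VE wells and 2.43, 2.43 and 1.94 in Epi wells, which is 1.84-fold. Ndufa4 had 17.8, 19.4 and 15.6 TP10k in VE wells and 9.87, 10.6 and 9.82 in Epi wells, which is 1.74-fold. All VE-well plates lay above all Epi-well plates in these genes, which the rule of counting on each plate largely fixes beforehand.

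Uqcrq, a small subunit of complex III, was also counted as higher in VE wells (14.8 against 9.38 TP10k, 1.57-fold). Cox6b2, the testis isoform of the complex IV subunit 6b, was lower: it had 0.676, 0.373 and 0.403 TP10k on plates 3, 4 and 5 of VE wells and 2.19, 1.86 and 1.26 in Epi wells. This is a 3.16-fold difference (log2 ratio -1.66), the largest of any member between 3D lineages. Ndufa7 was lower as well, with 8.69 TP10k in VE wells and 13.7 in Epi wells (1.57-fold). With a pseudocount of 1 TP10k, 3 of these 6 members were still counted (Ndufb7, Ndufa4 and Cox6b2). Cox6b2 was lost with mean ln(TP10k + 1) values and Ndufa4 among cells with 6000 to 8000 genes above 0, so that Ndufb7 alone was counted under every alternative.

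Between ExE wells and Epi wells 5 of 86 members were higher (5.81%), beside 11.1% of 8511 genes, and 0 were lower, beside 5.96%. By smaller amounts most members leaned the same way: 68 of 86 (79.1%) had a log2 ratio above 0, as did 56.6% of all genes, and the median was 0.21 (0.13 to 0.28 on single plates) beside 0.08 for all genes. Atp5g1 had 18.01, 15.1 and 19.9 TP10k on plates 3, 4 and 5 of ExE wells and 10.4, 9.21 and 8.90 in Epi wells, a 1.85-fold difference. Uqcrh, the hinge protein of complex III, had 8.90, 7.95 and 6.06 TP10k in ExE wells and 4.70, 5.16 and 3.72 in Epi wells (1.68-fold). Ndufb7 had 5.48, 5.98 and 5.90 TP10k in ExE wells and was 1.65-fold above Epi wells. In each of these genes the plates of the groups did not overlap, which the rule of counting again largely fixes. The accessory subunits Ndufb11 (2.83 against 1.71 TP10k) and Ndufa3 (7.19 against 4.46 TP10k) completed the count. Of the 5 members, 1 (Ndufa3) was still counted among cells with at least 4000 genes above 0 and 1 (Atp5g1) with a pseudocount of 1 TP10k. All 5 were counted when only 3D cells led by the marker list of their own lineage were used, with a median over all members of 0.25.

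Between VE wells and ExE wells 0 of 86 members were higher, beside 7.6% of 8694 genes, and 3 were lower (3.49%), beside 10.1%. Cox6b2 was 2.28-fold lower in VE wells, against 1.65, 1.35 and 0.694 TP10k on plates 3, 4 and 5 of ExE wells. Atp5s was 1.88-fold lower (0.364 against 0.772 TP10k). Cox7a2l, which serves in joining complexes III and IV, was 1.76-fold lower, with 3.74, 2.65 and 2.93 TP10k in VE wells and 6.01, 5.76 and 4.88 in ExE wells. With only 3D cells led by their own marker list, all 3 were counted. With a pseudocount of 1 TP10k or with mean ln(TP10k + 1) values, 0 were.

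The 3D groups were next set beside the 2D culture of the same lineage. Between Epi wells and ESCs 1 of 87 members was higher (1.15%), beside 5.72% of 11022 genes, and 8 were lower (9.20%), beside 4.45%. Of these 8 members, 6 belonged to the ATP synthase. Its c subunit genes were all 3 among them: Atp5g1 had 10.4, 9.21 and 8.90 TP10k on plates 3, 4 and 5 and 19.7 in ESCs (2.06-fold lower), Atp5g2 had 1.04, 1.15 and 1.05 against 2.22 (1.96-fold), and Atp5g3 had 2.43, 2.43 and 1.94 against 4.202 (1.82-fold). The gamma subunit Atp5c1 had 7.18 TP10k in Epi wells and 12.5 in ESCs, the delta subunit Atp5d 3.07 and 6.30, and Atp5j2, subunit f of the membrane part, 4.07 and 7.02. Over the 16 genes of the ATP synthase the median log2 ratio was -0.41, and over the 36 of complex I it was 0.09.

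In complex IV, Cox8a had 7.87, 7.43 and 5.43 TP10k on plates 3, 4 and 5 of Epi wells and 14.8 in ESCs, which is 2.13-fold lower. Cox5a had 9.62, 8.84 and 7.61 TP10k against 17.8 (2.04-fold lower). That every plate of Epi wells was under the value of the ESCs in both genes follows from the rule of counting. Ndufa13, an accessory subunit of complex I, was the member that was higher, with 2.64, 2.71 and 2.65 TP10k against 1.45 (1.79-fold). Over all eligible members the median log2 ratio was 0.01 (-0.06 to 0.09 on single plates) beside 0.05 for all genes. The median became -0.15 with mean ln(TP10k + 1) values and -0.13 among cells with 6000 to 8000 genes above 0. In that window 33 cells of Epi wells and 5 ESCs were left. Of the 33 cells 31 were on plate 3, 2 on plate 4 and 0 on plate 5, so that the rule on 3 plates could not be applied in full. There 14 members were counted, among them 5 of the 9 (Atp5c1, Atp5g1, Atp5g3, Cox5a and Cox8a). All genes were not counted in this window, so that the 14 has no background beside it. The 3D cells had fewer genes above 0, and the part of depth in these differences was not tested beyond this window.

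Between VE wells and iXEN cells 4 of 86 members were higher (4.65%), beside 2.26% of 10283 genes, and 1 was lower (1.163%), beside 3.54%. Cox7a1, the muscle isoform of subunit 7a, had 0.416, 0.529 and 0.526 TP10k on plates 3, 4 and 5 of VE wells and 0.138 in iXEN cells (2.47-fold higher). Ndufaf2, an assembly factor of complex I, had 0.937 TP10k against 0.469 (1.82-fold), and Ndufb4 had 0.951 against 0.489 (1.79-fold). Atp5j, coupling factor 6 of the ATP synthase, had 13.8, 16.2 and 13.5 TP10k against 8.76 (1.65-fold). Cox6b2 was lower, with 0.489 TP10k in VE wells and 1.12 in iXEN cells (2.08-fold). The median log2 ratio was 0.03 beside 0.01 for all genes, and 0 of the 5 members were counted with a pseudocount of 1 TP10k or with mean ln(TP10k + 1) values.

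Between ExE wells and iTSC 3 of 86 members were higher (3.49%), beside 7.25% of 10592 genes, and 3 were lower (3.49%), beside 6.03%. Atp5k, subunit e of the ATP synthase, had 3.41, 4.43 and 4.26 TP10k on plates 3, 4 and 5 of ExE wells and 2.08 in iTSC (1.89-fold higher). Ndufb7 had 5.48, 5.98 and 5.90 TP10k against 3.06 (1.86-fold), and it was counted under every alternative tried. The assembly factor Ndufaf4 had 0.555 TP10k against 0.280 (1.72-fold). Atp5g2 was lower, with 1.41, 1.37 and 0.660 TP10k against 2.55 (2.12-fold), as was Cox6b2, with 1.65, 1.35 and 0.694 TP10k against 2.70 (2.08-fold). Atp5d had 5.64, 5.12 and 3.30 TP10k against 8.55 (1.80-fold lower). Plate 5 had the lowest value of ExE wells in each of these 3 genes. With only cells led by their own marker list in 3D and 2D, 5 of the 6 members were counted, all but Cox6b2 (log2 ratio -0.88). With this rule for the 3D cells alone 5 were counted, all but Atp5d (-0.81), which was lost under 6 of 12 alternatives. Ndufb7 alone was counted with a pseudocount of 1 TP10k. With the TPM as deposited, 8 members were higher and 1 was lower, but all genes were not counted in this way. The median log2 ratio of all genes moved from 0.04 to 0.15 and that of the members from 0.05 to 0.23.

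The 3 comparisons had 86 eligible members in common, of which 0 were counted as higher in all 3 and 0 as lower in all 3. Among 9400 genes eligible in all 3, 28 were higher and 40 were lower in all 3. Without the rule on size, 25 members (29.1%) were above 0 on the log2 scale in all 3 comparisons and 22 (25.6%) were below 0, beside 25.9% and 15.6% of all genes.

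**Figure D3:**
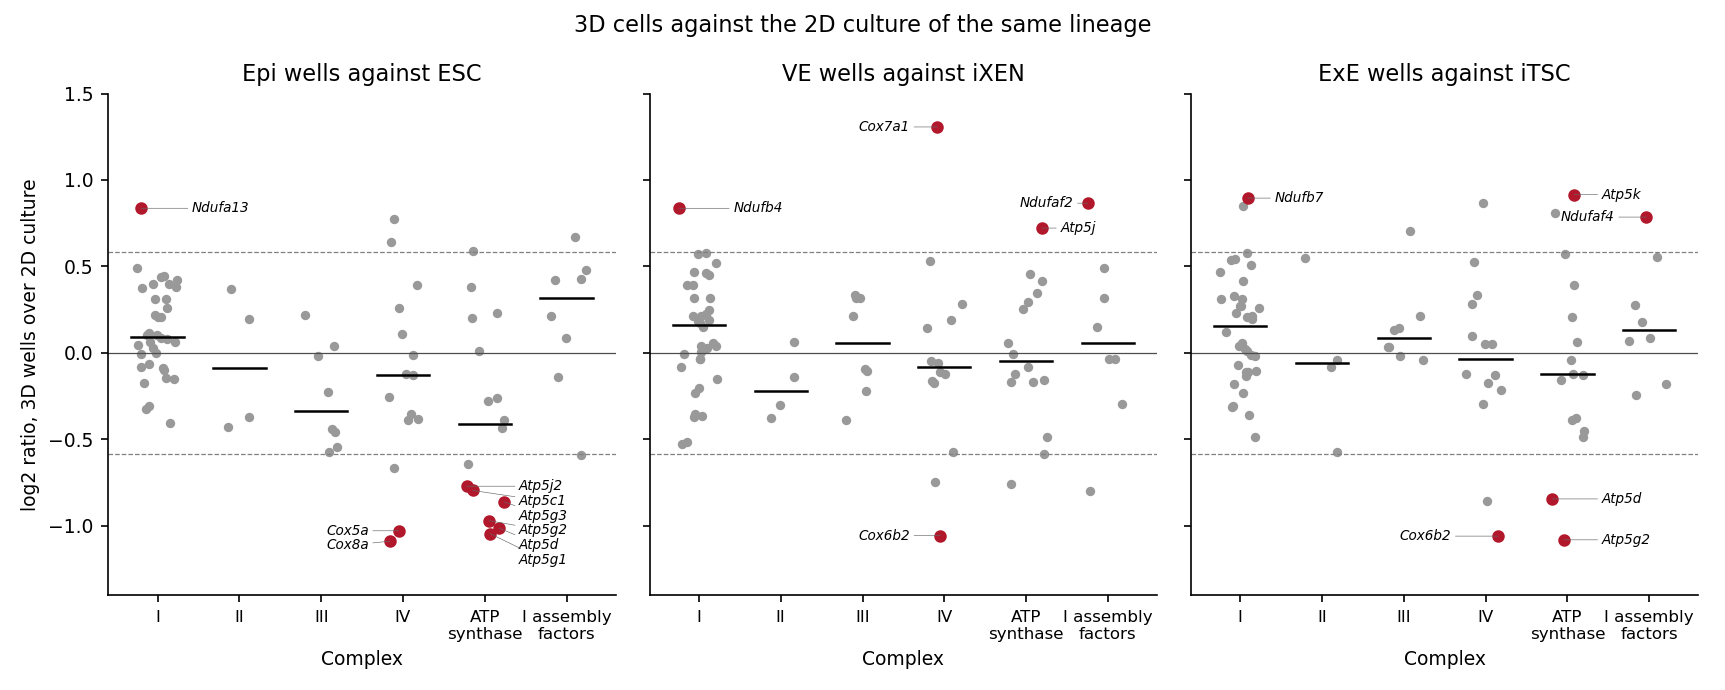
log2 ratio of every eligible member between 3D wells and the 2D culture of the same lineage, by complex, with red points for members counted as different, black lines for the median of a complex and dashed lines at 1.5-fold. The ATP synthase sits low in Epi wells (median -0.41), with 6 red points, and no member is red in all 3 plots.

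The same differences between lineages can be read in 3D and in 2D, which share no cells. Each lineage came from the same ESC line in both, so that differences between lines cannot be told from those between lineages. Between VE wells and Epi wells on 1 side and iXEN cells and ESCs on the other, 5 members were past 1.5-fold in both and in the same direction. Ndufa13, Ndufa4, Ndufb3 and Ndufb7 had higher means in the endoderm-like group and the assembly factor Ndufaf5 a lower one. These 5 are 5.81% of 86 members, beside 26.2% of 8482 genes. Only the pooled means were used here and not the rule on single plates, which Ndufa13, Ndufb3 and Ndufaf5 did not meet between VE wells and Epi wells. For Ndufa4 the 2D levels were 18.4 TP10k in iXEN cells and 10.2 in ESCs, close to the 17.7 and 10.1 of VE wells and Epi wells. For Ndufb7 they were 4.90 and 2.43 TP10k, under the 6.74 and 3.46 of the 3D wells. Pearson's r between the 3D and the 2D log2 ratios was 0.37 over 86 members and 0.82 over 8482 genes, as descriptions across genes that share their libraries. The members spread less: by pooled means 15.1% of them were past 1.5-fold between VE wells and Epi wells, beside 38.7% of all genes. A narrower spread can lower r by itself, so that r of members and of all genes are not directly comparable, here or below.

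Between ExE wells and Epi wells on 1 side and iTSC and ESCs on the other, Cox7a2l, Ndufa3 and Ndufb11 were past 1.5-fold higher in the trophoblast-like group in both by the pooled means (3.49% of 86 members, beside 12.9% of 8469 genes). Cox7a2l did not meet the rule on single plates between ExE wells and Epi wells. For Cox7a2l the levels were 5.56 and 3.16 TP10k in 3D and 4.38 and 2.63 in 2D. Pearson's r was 0.14 over the members and 0.62 over all genes. Atp5g1 went in opposite directions: it was higher in ExE wells than in Epi wells (17.6 against 9.49 TP10k) and lower in iTSC than in ESCs (10.02 against 19.7). Between VE and ExE wells on 1 side and iXEN cells and iTSC on the other, Cox6b2 and Cox7a2l were past 1.5-fold lower in the endoderm-like group in both (2.33% of 86 members, beside 15.3% of 8663 genes), and r was 0.52 over the members and 0.71 over all genes.

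**Figure D4:**
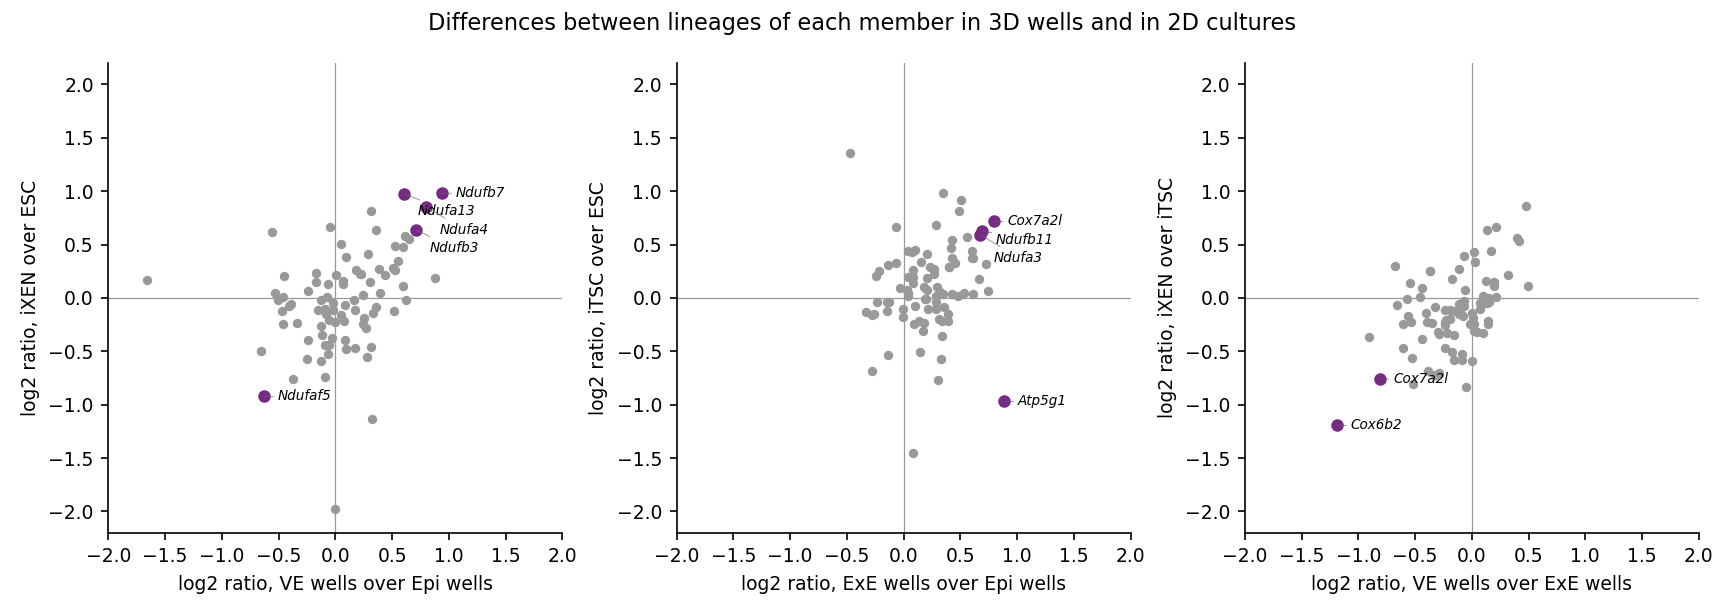
log2 ratio of every member between a pair of lineages in 3D wells (horizontal axes) and in 2D cultures (vertical axes), with purple points for members past 1.5-fold in both. Ndufa4 and Ndufb7 lie high in both for the endoderm-like against the epiblast-like group, and Atp5g1 lies high in 3D and low in 2D for the trophoblast-like group.

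The tissue isoforms were then set against their ubiquitous partners. Cox4i2 made up 0.0224% to 0.178% of the summed Cox4i1 and Cox4i2 level in every group, and Cox7b2 made up 0.145% to 0.376% of Cox7b and Cox7b2. Cox6a2 was listed at 0 in every cell of VE wells, ExE wells and iTSC, which at a limit of 3 counts allows a share of cells with a value above 0 of up to 0.952%, 0.850% and 2.13%. Such limits cover the number of cells sampled and not transcripts missed in a cell, so that they do not limit the share of cells expressing the gene. Cox8b was above 0 in 1 of 1406 cells, an iTSC, and Cox8c was above 0 in 3 cells of Epi wells, 2 of ExE wells, 3 ESCs and 3 iTSC. The ubiquitous Cox4i1, Cox6a1, Cox7b and Cox8a thus carried at least 99.4% of their sets in every group.

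Cox6b2 and Cox7a1 were the tissue isoforms with a sizeable share. Cox6b2 made up 14.6% of the summed Cox6b1 and Cox6b2 level in Epi wells (11.9% to 16.9% over plates), 7.35% in ExE wells (4.85% to 9.05%) and 3.22% in VE wells (2.29% to 3.90%). In the 2D cultures it made up 7.01% in ESCs, 6.58% in iXEN cells and 13.7% in iTSC. The order of the 3D groups, with Epi wells highest, was therefore not that of the 2D cultures, where iTSC were highest. The ubiquitous Cox6b1 had 10.3 TP10k in Epi wells and 13.1 to 17.1 in the other groups.

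Cox7a1 made up 6.14% of the summed Cox7a1 and Cox7a2 level in Epi wells (5.27% to 6.92% over plates), 6.78% in VE wells (5.36% to 8.97%) and 6.19% in ExE wells (4.56% to 7.87%), which overlapped. The 2D cultures stood apart from each other, at 9.32% in ESCs, 2.63% in iTSC and 1.80% in iXEN cells. Cox7a1 was above 0 in 96.5% of ESCs (exact binomial interval 91.97% to 98.8% at 95% confidence, for counting error only) and in 27.1% of cells of Epi wells (22.2% to 32.3%), 31.4% of VE wells and 36.8% of ExE wells. Where it was found, its mean level was 1.81 TP10k in Epi wells and 0.867 in ESCs. The part of depth, which is unknown, in these shares of cells was not tested.

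Ndufa4l2, the paralog of Ndufa4 known as a hypoxia-induced gene, was found in ESCs, Epi wells and iTSC. It was above 0 in 43.7% of ESCs (35.4% to 52.2%), 8.92% of cells of Epi wells (6.01% to 12.6%) and 6.38% of iTSC (2.96% to 11.8%). It was above 0 in 0 cells of VE wells, 0 of ExE wells and 0 iXEN cells, which allows shares of up to 0.952%, 0.850% and 2.13%. Its mean level was 0.122 TP10k in ESCs and 0.103 in Epi wells, that is 1.18% and 1.01% of the summed Ndufa4 and Ndufa4l2 level. The median number of genes above 0 was higher in VE and ExE wells than in Epi wells, and lower in iXEN cells than in ESCs. The part of depth in these zeros was not tested.

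The c subunit of the ATP synthase is encoded by Atp5g1, Atp5g2 and Atp5g3, whose precursors are cut to the same mature protein. Atp5g1 made up 73.9% of their sum in Epi wells, 68.7% in VE wells and 78.6% in ExE wells, beside 75.4% in ESCs, 57.9% in iXEN cells and 57.8% in iTSC. The sum thus leaned to Atp5g1 in ESCs and in all 3D groups, and was more even in iXEN cells and iTSC. Atp5g3 made up 17.7%, 24.6% and 16.3% in Epi, VE and ExE wells and 16.1%, 31.3% and 27.5% in ESCs, iXEN cells and iTSC.

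**Figure D5:**
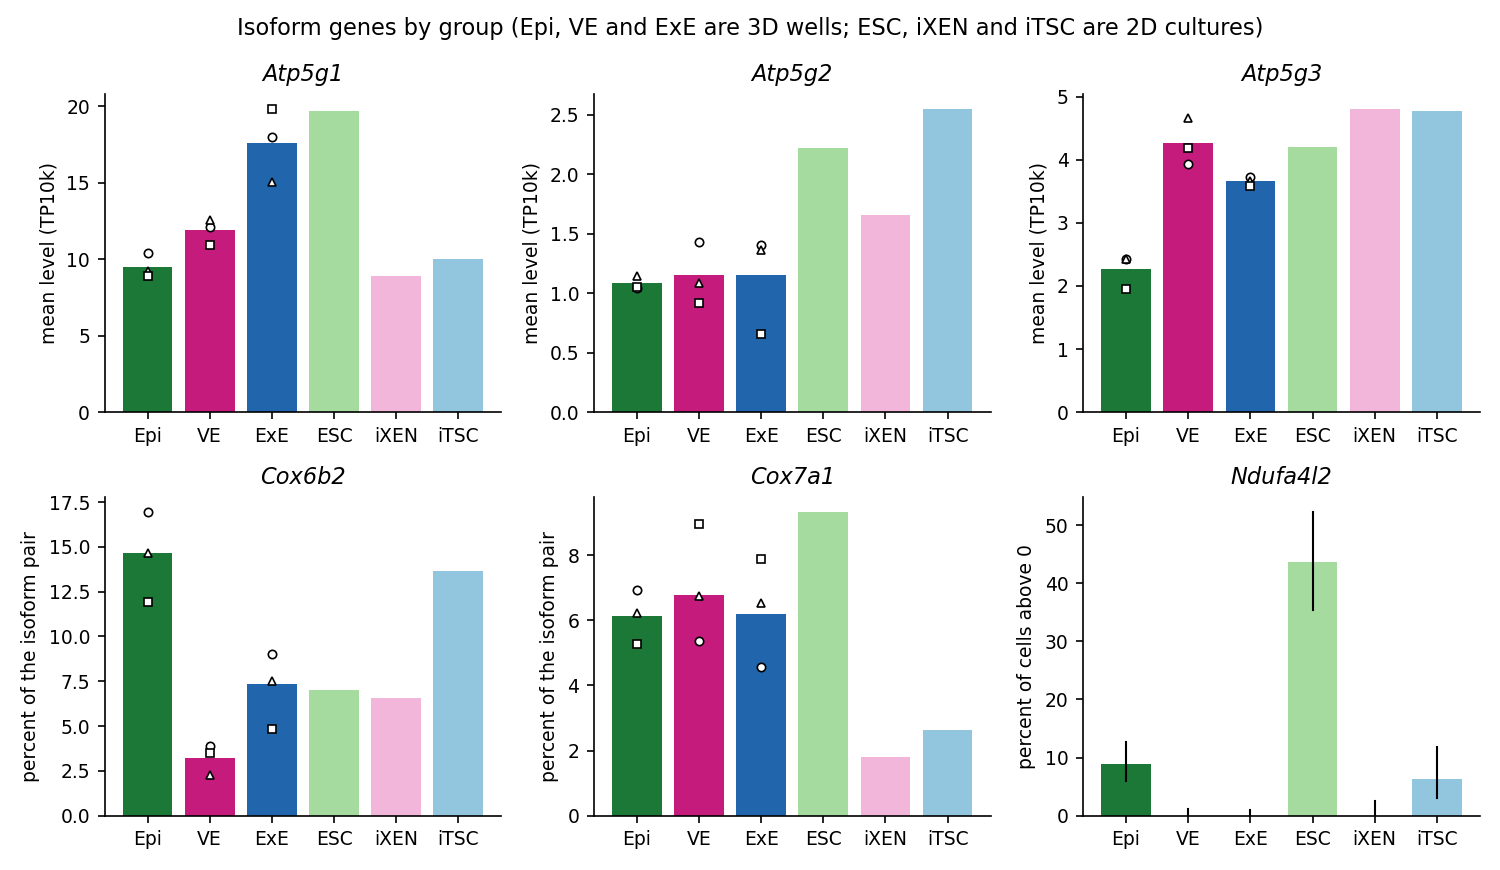
Isoform genes in the 6 groups: mean level in TP10k of the 3 c subunit genes (upper row), Cox6b2 and Cox7a1 as percent of their isoform pair, and percent of cells with Ndufa4l2 above 0, with circles, triangles and squares for plates 3, 4 and 5 and vertical lines for exact 95% binomial intervals. Atp5g1 is high in ESCs (19.7) and ExE wells (17.6), Cox6b2 is lowest in VE wells (3.22%), and Ndufa4l2 is at 0% in VE wells, ExE wells and iXEN cells.

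Plates differed in some of the same genes in all 3 lineages. Atp5d, Cox6a1 and Cox6b2 were past 1.5-fold lower on plate 5 than on plate 3 in Epi, VE and ExE wells alike. Cox6a1 had 10.1, 10.6 and 6.38 TP10k on plates 3, 4 and 5 of Epi wells, 15.7, 14.9 and 8.66 in VE wells and 15.1, 13.2 and 8.72 in ExE wells, with plate 5 lowest each time. Between plates 3 and 4, 0 members were past 1.5-fold in Epi wells, 1 in VE wells and 0 in ExE wells. Between plates 3 and 5 it was 4, 7 and 7 members (4.65%, 8.24% and 8.14%), beside 6.32%, 6.83% and 8.65% of all genes.

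Other genes of the pathway were counted as whole lists. Lists this short cannot tell counts of 0 or 1 from the shares of all genes. The tricarboxylic acid cycle, which feeds NADH and succinate into the chain, had 13 genes. Of these, 3 were higher and 0 lower in ExE wells than in Epi wells, beside 11.1% and 5.96% of all genes. Their median log2 ratio was 0.36, beside 0.08 for all genes. Between VE wells and Epi wells 0 were higher and 0 lower (median 0.23), beside 14.9% and 12.3%. Between Epi wells and ESCs 0 were higher and 1 lower (-0.10), beside 5.72% and 4.45%. Between VE wells and ExE wells 0 were higher and 1 was lower (-0.26), beside 7.6% and 10.1%. Neither the VE wells against iXEN cells nor the ExE wells against iTSC gave a count. Of the 10 complex IV assembly genes analysed, 1 was higher in 3D than in 2D in each of the 3 matched comparisons, though not the same gene in all 3. All genes higher were 5.72% for Epi wells, 2.26% for VE wells and 7.25% for ExE wells in these. In VE wells 1 was lower than in Epi wells, beside 12.3% of all genes. Of the 9 carriers and regulators, 1 was higher in VE wells than in Epi wells, beside 14.9% of all genes. In the other 5 comparisons 0 were counted. Cytochrome c1 (Cyc1), the complex III subunit outside the rule, was even, with 5.32 to 7.44 TP10k. So was the electron carrier somatic cytochrome c (Cycs), with 0.447 to 0.588.

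Regulators known for this gene set were low. Nrf1 had 1.07 TP10k in Epi wells and 1.12 in ESCs, and 0.524 to 0.866 in the other groups. Gabpa had 0.599 and 0.632 TP10k in Epi wells and ESCs and 0.281 to 0.360 elsewhere, and Tfam, which packages and helps transcribe mitochondrial DNA, had 0.967 and 0.941 and 0.564 to 0.847 elsewhere. The epiblast-like groups were thus highest in these 3 genes in both experiments, while their summed members were not. The orphan receptor Esrra ran the other way, with 0.0416 TP10k in Epi wells and 0.0743 in ESCs against 0.152 to 0.194 in the other groups. Polrmt, the mitochondrial RNA polymerase, had 0.375 to 0.579 TP10k, and the coactivators Ppargc1a and Ppargc1b had at most 0.00453 and 0.0509 TP10k in any group.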

How the data were processed

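TPM per gene were deposited for single sorted cells that had been sequenced by SMART-seq2. According to their methods, the authors had quantified the reads with kallisto against mouse Gencode vM16 transcripts, filtered out mitochondrial, ribosomal and pseudogenes, and then imported the values with tximport. The table still holds 6 members whose symbols mark pseudogenes. The submitters' processing notes also name bcl2fastq 2.20 and Seurat. The table holds 20999 genes in 1931 wells, of which 39 have no value. TPM keep no read number, so that depth is unknown and the number of genes above 0 stood in for it. SMART-seq2 has no molecular identifiers, and binomial intervals cover counting error only.

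TPM were scaled to 10000 per cell (TP10k), and group means were compared as log2 ratios with a pseudocount of 0.1, which understates changes of low genes. With 1 sample per condition no test was run. Members with near-identical copies elsewhere, such as Uqcrh, Atp5k and Atp5l, could share reads with their pseudogenes and are uncertain. Named were all isoform genes, the 2 highest and the lowest gene of each complex, the 3 members with the largest ratios counted in each direction of a comparison, and a short list of carriers and regulators. Other members (the rest of those counted, and such as Ndufa9, Cox6a1, Ndufaf5 and Ndufb3) were named after their values were seen. The members and lists were chosen with earlier results of these data known. The calculation of the ratios was checked with 3-fold changes planted in a random part of the measured Epi-well cells. Only genes found in most of these cells were used, so that the check does not cover 1.5-fold changes of low genes. Tools were numpy 2.4.6, pandas 2.3.3 and scipy 1.17.1 under Python 3.11.15, and matplotlib 3.10.9 for the plots. Alternatives were another pseudocount, mean ln values, TPM without rescaling, other depth limits, marker-led cells and each plate left out. The complex IV assembly genes Cox16 and Sco2 were on the list but not analysed here.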

Additional observations from a re-analysis of the deposited data

Results flagged for a closer look

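In a few members the ratio of 3D to 2D over all cells was past 1.5-fold in opposite directions in different lineages, with all 3 plates on the same side each time. This is looser than the rule of counting on each plate. Between Epi wells and ESCs, Cox6b2 and Cox7a1 did not meet that rule. Neither did Cox7a1 and Atp5g1 between ExE wells and iTSC. Cox7a1 was under 1 TP10k in every group. The difference between lineages was not tested, since each condition is 1 sample. Cox6b2 was higher in Epi wells than in ESCs (log2 ratio 0.77, and 0.32 to 1.07 on single plates) and lower in VE wells than in iXEN cells (-1.06) and in ExE wells than in iTSC (-1.06). Cox7a1 was lower in Epi wells than in ESCs (-0.67) and higher in VE wells than in iXEN cells (1.31) and in ExE wells than in iTSC (0.86). Atp5g1 was lower in Epi wells than in ESCs (-1.04) and higher in ExE wells than in iTSC (0.81, and 0.58 to 0.98 on single plates).

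Atp5g1 also differed in opposite directions between lineages, with a log2 ratio of 0.89 for ExE wells over Epi wells and -0.97 for iTSC over ESCs, which was not tested either.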

How the results depend on the processing

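Calls rest on 1 sample per condition and on cells that may differ in depth, since 2D cells had more genes above 0. Means of under 1 TP10k depend on the pseudocount. Of 72 medians of the members under an alternative, 57 moved by no more than the SD over plates. With mean ln(TP10k + 1) values the median log2 ratio turned to -0.15 (Epi wells minus ESC), -0.0774 (VE wells minus iXEN) and -0.0576 (ExE wells minus iTSC), and among cells with 6000 to 8000 genes it was -0.13 for Epi wells minus ESC. With TPM as deposited it was 0.10 for Epi wells minus ESC, 0.23 for ExE wells minus iTSC, 0.0225 for VE wells minus Epi wells and -0.15 for VE wells minus ExE wells. Among cells with 6000 to 8000 genes it was 0.12 for VE wells minus Epi wells and -0.16 for VE wells minus ExE wells. The last comparison also had -0.0898 with a pseudocount of 1, -0.0865 without a minimum share of cells, -0.13 with only 3D cells led by their own marker list, -0.13 with this rule in 3D and 2D, and -0.14 to -0.10 without 1 plate. The cause of these shifts was not tested.

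The number of members counted fell with a pseudocount of 1 to 0 (VE wells minus iXEN, and VE wells minus ExE wells), 1 (ExE wells minus iTSC, and ExE wells minus Epi wells) and 3 (VE wells minus Epi wells). With mean ln(TP10k + 1) it was 0 for VE wells minus iXEN and for VE wells minus ExE wells, 2 for ExE wells minus iTSC and 3 for ExE wells minus Epi wells. It was 1 for ExE wells minus Epi wells with a minimum of 4000 genes. Among cells with 6000 to 8000 genes it was 14 for Epi wells minus ESC, where plate 5 had no Epi-well cell, and 3 for VE wells minus iXEN. Without 1 plate fewer values had to pass, and the counts were 5 to 10 (VE wells minus iXEN, 10 without plate 3), 6 to 10 (ExE wells minus iTSC, 10 without plate 3), 5 to 8 (ExE wells minus Epi wells, 8 without plate 5) and 3 to 6 (VE wells minus ExE wells, 6 without plate 3 and 5 without plate 4). All genes were not counted under the alternatives, so that these counts have no background beside them. Of 34 calls of a member, 7 held under every alternative, and 0 changed sign under any. The rule on marker-led cells in 3D and 2D, and the members without assembly factors and pseudogenes, were chosen after seeing the data.

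Of the complex sums, 95.6% moved by no more than the SD over plates. With TPM as deposited, brought to the TP10k scale by 1 factor for all cells, iTSC had 142.9 in complex I, 13.7 in complex II, 52.4 in complex III and 119.7 in the ATP synthase. Complex II in VE wells was 14.5 TP10k with a minimum of 4000 genes. In ExE wells complex III was 67.8 and the ATP synthase 131.9 in cells led by their own marker list, and the ATP synthase was 124.4 as the median over cells. No paired analysis was possible because each condition is 1 sample.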
